A study of Mus musculus with 20 samples.

Results

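The erythroid and heme synthesis genes are a set of 37 mouse genes that serve the making of red blood cells, with the globins left out. They were chosen by name, but they and the other gene lists were chosen with earlier results of these data known. Shares of a list set beside those of all tested genes therefore describe the list and are no test. Of the 37, 36 had a row in the deposited table of 45802 gene entries, and all 36 were among the 11807 genes with values high enough to be tested. Ahsp, which encodes the chaperone of free alpha globin, had no row under that symbol. The measurements are bulk RNA sequencing of whole fetal liver from 20 mouse fetuses of the C57BL/6 strain at stage E17.5, and every dam had been fasted for 24 h before collection. HetDam_HetFetus held heterozygous fetuses of dams heterozygous for a Ppara knockout, KODam_HetFetus held heterozygous fetuses of Ppara knockout dams, and KODam_KOFetus held knockout fetuses of knockout dams. FloxDam_FloxFetus held Cpt2f/f fetuses of Cpt2f/f dams, and Cpt2LKODam_FloxFetus held Cpt2f/f fetuses of Cpt2f/f dams that also carried Albumin-Cre, a recombinase driven by a promoter of hepatocytes, so that Cpt2 was deleted in the liver of the dam. Titles of that arm call the floxed animals WT, but their genotype labels give Cpt2f/f, which is used here. No group was fed, and no Ppara wild-type group was among the labelled genotypes, so the Ppara controls carried a knockout allele in dam and fetus alike. Each group held 4 fetuses, 2 female and 2 male.

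PPARA is a nuclear receptor that switches on fat oxidation and ketone body genes during fasting, and CPT2 is the inner mitochondrial enzyme that long-chain fatty acids need for oxidation. Before birth the liver is the main site of red cell production, where erythroid precursors divide, fill with hemoglobin, remodel their membrane and lose their nucleus among the hepatocytes. Erythropoietin, acting through its receptor and the kinase JAK2, keeps the precursors alive, and GATA1, KLF1 and the complex of TAL1 and LMO2 switch on their genes. Heme is built by enzymes that work in turn in mitochondria and cytosol, beginning with ALAS2 in erythroid cells and ending with ferrochelatase, which inserts the iron.

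Values are log2 expression as deposited, and all differences below are between group means on that scale, so a difference of 1 is a doubling of the linear value. What was counted before the log step is not stated, so levels of different genes were not compared with each other. Each library had values for 23334 to 26255 gene entries. Ppara transcript was present in all libraries, at 2.86 to 3.47 in HetDam_HetFetus, 1.81 to 3.22 in KODam_HetFetus and 1.87 to 2.48 in KODam_KOFetus, and since its reads could lie outside the deletion it does not check the labels. Cpt2 was deleted in the dams only, so its fetal level checks nothing. The hepatocyte marker list had a high summed value in every library, with a log2 sum between 15.99 and 16.90. HetDam_HetFetus replicate 4 and KODam_KOFetus replicate 2 carried skeletal muscle transcripts (log2 sums of 7.59 and 8.10), and Cpt2LKODam_FloxFetus replicate 2 carried pancreas and gut transcripts (9.38). Fetuses that share a number in their descriptions are presumed to be littermates: replicates 1 and 2 of KODam_HetFetus, replicates 1 and 2 of KODam_KOFetus, and replicates 3 and 4 of FloxDam_FloxFetus. No presumed litter was split between groups, so in every comparison litters lie within groups. The p-values measure the spread between these fetuses. In whole liver, fewer cells of a type and less RNA per cell cannot be told apart.

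The first comparison asked what loss of Ppara in the dam did to the liver of a heterozygous fetus. Of the 36 members, 8 were higher in KODam_HetFetus than in HetDam_HetFetus (Tspan33, Epor, Bpgm, Urod, Slc4a1, Fech, Epb41 and Rhd), 1 was lower (Uros) and 27 did not pass the test (limma, adjusted p under 0.05 over all tested genes). The higher members were 22.2% of the set, against 26.4% of all tested genes called higher, and the lower member was 2.78%, against 12.6% called lower. The median difference of the members was 0.27, beside 0.144 for all tested genes, and leaving out single libraries gave 0.05 (without HetDam_HetFetus replicate 2) to 0.36. A trimmed-mean centring of the libraries moved the median of all genes to 0.018 and that of the members to 0.14, and the share of higher calls among all calls went from 67.8% to 49.9%. Without replicates 1 and 2 of KODam_HetFetus, the presumed littermates, 3 members were called higher (Tspan33, Epor and Bpgm), 0 were called lower and the median was 0.02. The share and median of all tested genes in that fit are not given, so the smaller count cannot be read as particular to the members.

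**Figure D1:**
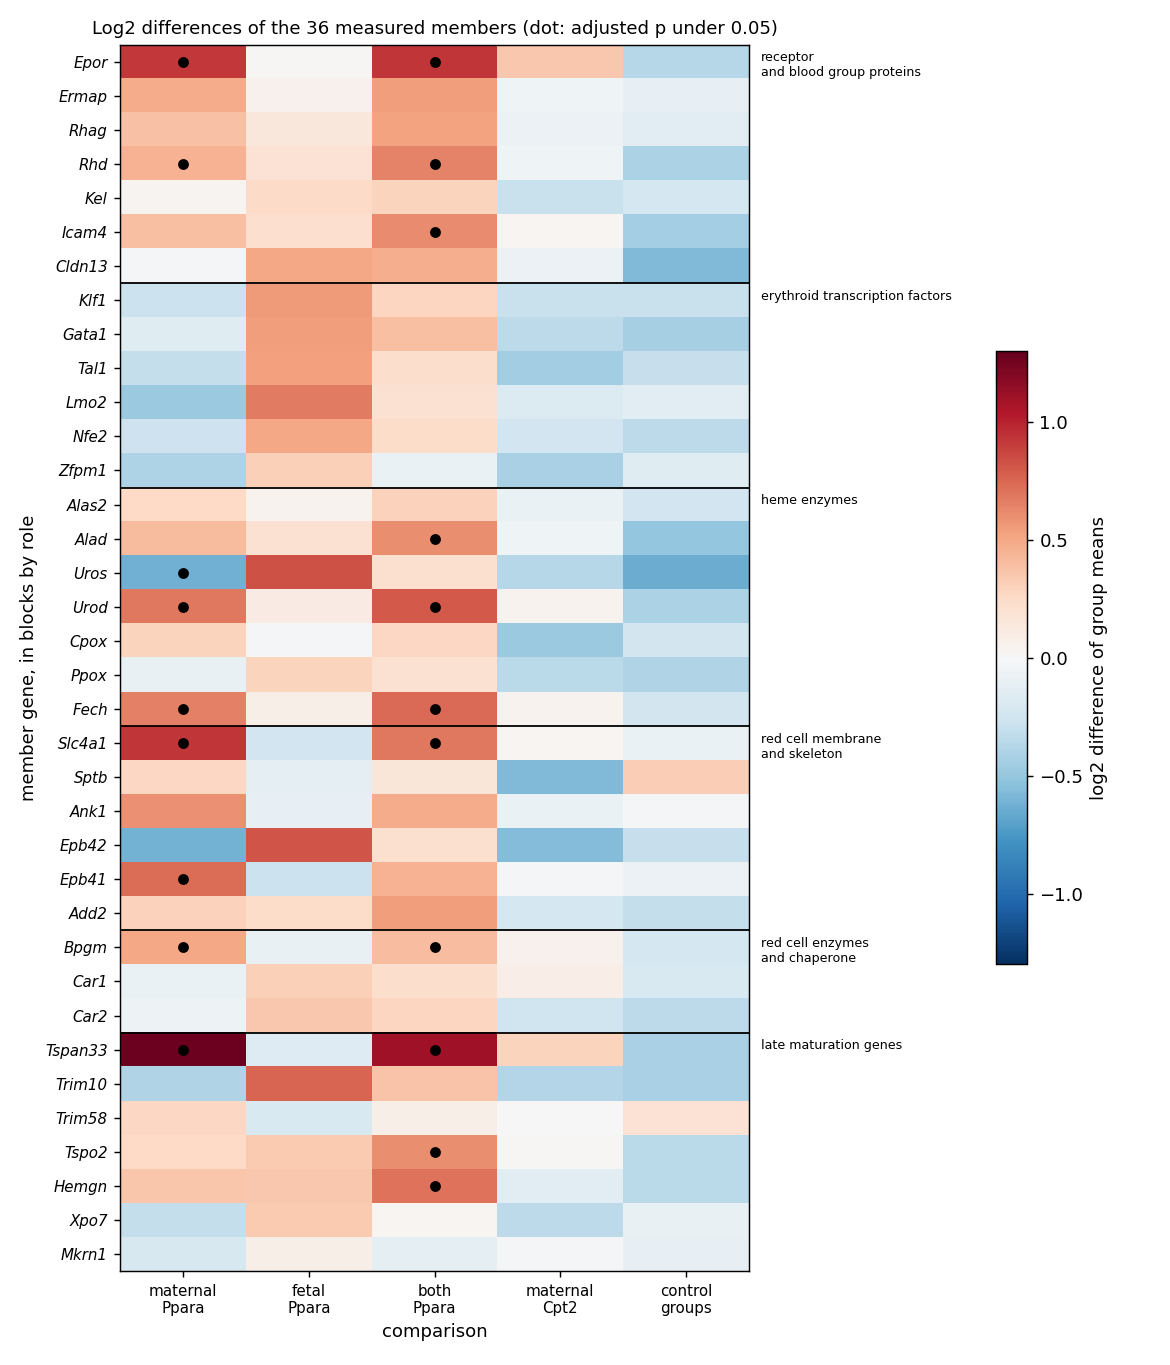
Log2 differences of group means (color) for the 36 measured members (vertical axis, in blocks by role) in 5 comparisons (horizontal axis); "control groups" is HetDam_HetFetus minus FloxDam_FloxFetus, and a black dot marks a limma adjusted p under 0.05. Dots appear in the maternal Ppara column (9 members) and the column of both knockouts (11 members).

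Epor encodes the erythropoietin receptor, on chromosome 9 from 21958897 to 21963576 on the GRCm38.p6 build (protein-coding, minus strand). Its values were 4.61, 4.49, 4.40 and 4.35 in HetDam_HetFetus and 5.56, 5.04, 5.58 and 5.34 in KODam_HetFetus. Every fetus of a knockout dam stood above every fetus of a heterozygous dam. The difference was 0.92 ± 0.178 (SE, 1.89-fold, limma adjusted p = 0.000912), and it was called with any single library left out and without the presumed littermates. The 250 bases before its RefSeq start (chr9:21963577-21963826, minus strand) are shown because Epor was called in both comparisons with HetDam_HetFetus. Capitals mark matches, on either strand, to a GATA hexamer (GATA with A or T before it and A or G after it) or to the KLF-type motif CCNCNCCC, in a sequence written in the direction of the gene.

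Epor: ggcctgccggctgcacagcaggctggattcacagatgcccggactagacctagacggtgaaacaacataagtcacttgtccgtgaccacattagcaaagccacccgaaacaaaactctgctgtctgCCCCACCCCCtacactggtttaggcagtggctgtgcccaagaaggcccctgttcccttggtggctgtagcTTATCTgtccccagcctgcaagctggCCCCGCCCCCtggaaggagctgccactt

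The Epor window held 1 GATA hexamer, 49 to 54 bases before the start, and 4 KLF-type matches, counted with overlaps. Of 14 other tested genes of erythropoietin signalling, 3 were higher and 3 lower, beside 26.4% of all tested genes called higher and 12.6% called lower. The same shares stand beside the counts of the other gene lists of this comparison, before any change of settings. Without the presumed littermates the counts for erythropoietin signalling were 2 and 2. Jak2, the kinase bound to the receptor, stood at 2.11, 1.70, 2.02 and 1.94 in HetDam_HetFetus and at 3.61, 3.48, 3.18 and 3.26 in KODam_HetFetus, and rose by 1.44 ± 0.221 (adjusted p = 0.000214). Bcl2l1, which encodes the survival protein BCL-XL, rose by 0.59 ± 0.136 (adjusted p = 0.00294). Cish, a feedback inhibitor that STAT5 induces, went from 2.40, 3.29, 2.37 and 3.35 to 0.98, 1.46, 1.22 and 1.80, with no overlap, and fell by 1.49 (SE 0.321, adjusted p = 0.00176). Ptpn6, a phosphatase that switches the receptor off and is abundant in myeloid cells, fell by 0.70 (SE 0.148, adjusted p = 0.00163). No link between these genes and the difference of Epor was tested.

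**Figure D2:**
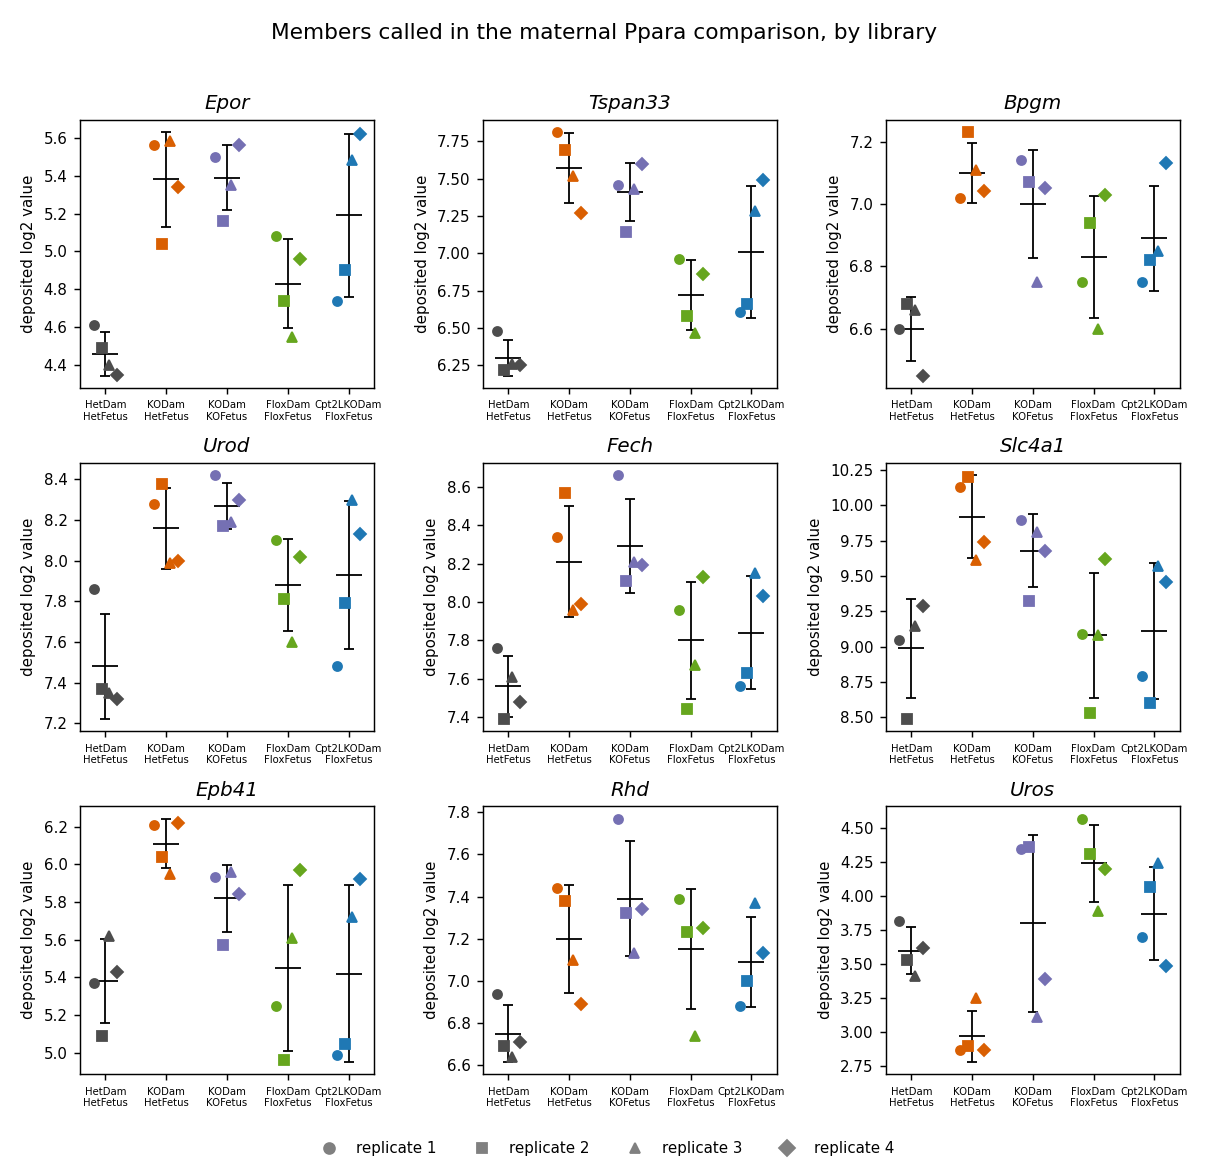
Deposited log2 value (vertical axis, a separate scale per gene) of the 9 members called in the maternal Ppara comparison, in each of the 20 libraries by group (horizontal axis); symbols are replicates, and black lines show the group mean ± SD (n = 4). Epor and Tspan33 lie higher in all 8 fetuses of Ppara knockout dams than in the 4 of HetDam_HetFetus, and Uros lies lower in KODam_HetFetus.

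The erythroid transcription factors went the other way, without passing the test. All 6 had a lower mean in KODam_HetFetus (median -0.30, beside 0.144 for all tested genes). Trimmed-mean centring, which moved all genes down in this comparison, gave a median of -0.42. Lmo2, the bridging subunit of the TAL1 complex, stood at 6.02, 5.74, 5.95 and 5.99 in HetDam_HetFetus and at 5.48, 5.09, 5.86 and 5.35 in KODam_HetFetus (-0.48 ± 0.23, adjusted p = 0.105). Replicate 3 of KODam_HetFetus lay within the range of the controls, and the other 3 lay under it. Zfpm1, the FOG1 cofactor of GATA1, differed by -0.41 (adjusted p = 0.173), Tal1 by -0.31 (adjusted p = 0.321), Klf1 by -0.28 (adjusted p = 0.316), Nfe2, a factor of late erythroid and megakaryocytic genes, by -0.27 (adjusted p = 0.264), and Gata1 by -0.16 (adjusted p = 0.538). Their groups overlapped in every case. After trimmed-mean centring Lmo2 was called lower (-0.60, adjusted p = 0.0367). Among 19 other tested genes of erythroid transcription, 7 were higher and 3 lower (median 0.19, and 3 higher after trimmed-mean centring). Without the presumed littermates 1 was higher and 1 lower. E2f2, a cell cycle factor of late erythroblasts, rose by 1.21 ± 0.231 (adjusted p = 0.000823), and Mafk, a small MAF partner of NFE2, rose by 0.58 ± 0.139 (adjusted p = 0.00363). Mafg, another small MAF protein, fell by 0.88 (SE 0.207, adjusted p = 0.00313).

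Heme enzymes are given in the order of the pathway. Alas2, the erythroid enzyme of the entry step, stood at 9.48, 9.17, 9.45 and 9.37 in HetDam_HetFetus and 9.66, 9.90, 9.39 and 9.55 in KODam_HetFetus, and was not called (0.26 ± 0.134, adjusted p = 0.135). Alad, the next enzyme, differed by 0.41 ± 0.163 (adjusted p = 0.0534).

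Uros, the enzyme that closes the ring, was the lower member. It stood at 3.82, 3.53, 3.41 and 3.62 in HetDam_HetFetus and at 2.87, 2.90, 3.25 and 2.87 in KODam_HetFetus, with no overlap. The difference was -0.63 ± 0.242 (1.54-fold lower, adjusted p = 0.047). The call was lost when any library of either group other than KODam_HetFetus replicate 3 was left out (adjusted p 0.0516 to 0.113), and without the presumed littermates (-0.54, adjusted p = 0.211). Uros is known to have a housekeeping promoter and an erythroid promoter inside the gene (chromosome 7, 133686142 to 133710467, minus strand), and the windows before 2 of its RefSeq starts are shown because they differ in the motifs searched. Each window lies within the span of the gene given above. That at chr7:133709296-133709545, labelled upstream, is the farther upstream of the 2, and that at chr7:133702501-133702750 is labelled internal. Which of the known promoters each belongs to was not tested.

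Uros upstream: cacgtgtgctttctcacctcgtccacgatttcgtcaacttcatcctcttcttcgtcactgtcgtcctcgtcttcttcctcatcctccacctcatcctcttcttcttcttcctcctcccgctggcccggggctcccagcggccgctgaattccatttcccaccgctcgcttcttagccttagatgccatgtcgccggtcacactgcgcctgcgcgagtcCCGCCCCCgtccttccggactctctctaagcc

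Uros internal: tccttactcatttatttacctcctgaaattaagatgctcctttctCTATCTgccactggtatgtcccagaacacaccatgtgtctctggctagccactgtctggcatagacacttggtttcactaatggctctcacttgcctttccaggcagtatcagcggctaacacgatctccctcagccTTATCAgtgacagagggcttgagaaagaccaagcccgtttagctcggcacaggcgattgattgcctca

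The upstream window held 1 KLF-type match and 0 GATA hexamers, and the internal window held 2 GATA hexamers and 0 KLF-type matches. The table gives 1 value for Uros, so its starts could not be measured apart.

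Urod, which decarboxylates the ring, rose. Its values were 7.86, 7.37, 7.35 and 7.32 in HetDam_HetFetus and 8.28, 8.38, 7.99 and 8.0 in KODam_HetFetus, so that the highest control lay close under the lowest fetus of a knockout dam (0.69 ± 0.166, 1.61-fold, adjusted p = 0.00376). Cpox (0.29 ± 0.255, adjusted p = 0.382) and Ppox (-0.09 ± 0.183, adjusted p = 0.714), the oxidases of the following steps, were not called. Fech, the ferrochelatase, stood at 7.76, 7.39, 7.61 and 7.48 against 8.34, 8.57, 7.96 and 7.99, and rose by 0.65 ± 0.177 (1.57-fold, adjusted p = 0.00755). For Urod and Fech the 2 presumed littermates of KODam_HetFetus were the highest of the group, and without them neither was called (0.52, adjusted p = 0.0696, and 0.42, adjusted p = 0.14). Of 27 other genes of the heme pathway and mitochondrial iron, 14 were higher and 1 lower (median 0.41). The counts were 9 and 3 after trimmed-mean centring and 11 and 1 without the littermates. The higher genes included Isca1 (0.51 ± 0.0858, adjusted p = 0.000365), an assembly factor of iron-sulfur clusters, Slc25a39 (0.69 ± 0.129, adjusted p = 0.00072), a mitochondrial glutathione carrier, and the heme exporter Flvcr1, listed as Mfsd7b (0.89 ± 0.185, adjusted p = 0.00136). Steap3, the reductase that frees iron for uptake into erythroid cells, fell by 0.98 (SE 0.261, adjusted p = 0.0069).

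Of the 6 membrane and skeleton members 2 were higher (Slc4a1 and Epb41) and 4 did not pass the test. Slc4a1, the band 3 anion exchanger, stood at 9.05, 8.49, 9.15 and 9.29 in HetDam_HetFetus and at 10.13, 10.20, 9.61 and 9.74 in KODam_HetFetus, with no overlap (0.93 ± 0.243, 1.9-fold, adjusted p = 0.00625). Epb41, the protein 4.1 that ties the skeleton to the membrane, went from 5.37, 5.09, 5.62 and 5.43 to 6.21, 6.04, 5.95 and 6.22 (0.73 ± 0.21, 1.66-fold, adjusted p = 0.0109). All 4 fetuses of knockout dams lay above the controls. Ank1, which anchors band 3 to spectrin, did not overlap between the groups but was not called (0.59 ± 0.244, adjusted p = 0.0603). Sptb, beta spectrin, was scattered within the groups, from 3.92 to 5.77 in HetDam_HetFetus alone (0.27 ± 0.363, adjusted p = 0.574), and Add2, beta adducin, was not called (0.30 ± 0.216, adjusted p = 0.281). Epb42, protein 4.2, which binds band 3 and ankyrin, went against the others: 5.22, 4.62, 5.24 and 5.19 in HetDam_HetFetus against 4.42, 4.43, 4.60 and 4.37 (-0.62 ± 0.269, adjusted p = 0.0768). It was called lower without HetDam_HetFetus replicate 2 (-0.76, adjusted p = 0.0473) and after trimmed-mean centring (-0.74, adjusted p = 0.0294). Without the littermates Slc4a1 (0.68, adjusted p = 0.102) and Epb41 (0.71, adjusted p = 0.064) were not called. Of 20 other membrane genes 8 were higher and 2 lower (median 0.33), or 3 and 2 after trimmed-mean centring. Without the littermates the counts were 2 and 1. Tmod1, which caps actin filaments of the skeleton, rose by 0.94 ± 0.195 (adjusted p = 0.00141), and Mpp1, a membrane scaffold protein, fell by 0.76 (SE 0.183, adjusted p = 0.00363).

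Of the blood group proteins only Rhd was called among the 6 members tested. Rhd, of the Rh complex (chromosome 4, 134864536 to 134896172, plus strand), stood at 6.94, 6.69, 6.64 and 6.71 in HetDam_HetFetus and 7.44, 7.38, 7.10 and 6.89 in KODam_HetFetus. Replicate 4 of KODam_HetFetus lay under replicate 1 of the controls, so the groups overlapped (0.46 ± 0.162, 1.37-fold, adjusted p = 0.0324). The call was lost without HetDam_HetFetus replicate 2, 3 or 4 (adjusted p 0.0632 to 0.075), without KODam_HetFetus replicate 1 or 2 (adjusted p = 0.106 and 0.087), and after trimmed-mean centring (0.33, adjusted p = 0.153). Rhag, the ammonia channel that carries the Rh proteins (0.38, adjusted p = 0.123), and Ermap, the Scianna antigen (0.49, adjusted p = 0.0902), did not overlap between the groups but were not called. Icam4, the adhesion molecule of erythroblasts (0.39, adjusted p = 0.115), Kel, the Kell endopeptidase (0.03, adjusted p = 0.888), and Cldn13 (-0.02, adjusted p = 0.944), a claudin, overlapped. The window before the Rhd start (chr4:134864286-134864535, plus strand) held 1 GATA hexamer and 0 KLF-type matches, and is shown beside that of Alas2 (chrX:150547167-150547416, plus strand), which was not called and held 1 and 4.

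Rhd: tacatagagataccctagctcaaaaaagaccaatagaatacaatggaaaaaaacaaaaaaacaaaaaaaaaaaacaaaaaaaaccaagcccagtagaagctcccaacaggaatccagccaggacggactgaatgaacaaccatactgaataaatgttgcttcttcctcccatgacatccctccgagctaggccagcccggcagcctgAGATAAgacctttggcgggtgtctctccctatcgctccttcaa

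Alas2: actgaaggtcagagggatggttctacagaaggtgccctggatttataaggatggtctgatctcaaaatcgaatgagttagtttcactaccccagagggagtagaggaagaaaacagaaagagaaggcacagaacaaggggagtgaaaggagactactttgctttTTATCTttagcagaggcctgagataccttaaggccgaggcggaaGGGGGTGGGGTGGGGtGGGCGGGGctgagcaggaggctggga

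Bpgm, the enzyme that makes 2,3-bisphosphoglycerate and so lowers the oxygen affinity of hemoglobin, had the smallest standard error of the called members. It stood at 6.60, 6.68, 6.66 and 6.45 in HetDam_HetFetus and at 7.02, 7.23, 7.11 and 7.04 in KODam_HetFetus. The groups were apart by more than the range of either (0.50 ± 0.114, 1.42-fold, adjusted p = 0.00253). Without the presumed littermates Bpgm was called. The carbonic anhydrases Car1 (-0.09, adjusted p = 0.844) and Car2 (-0.07, adjusted p = 0.799), which hydrate carbon dioxide in red cells, were not called. In Car1 the libraries of HetDam_HetFetus ran from 4.08 in replicate 4 to 5.39.

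Tspan33, a tetraspanin of late erythroblasts (chromosome 6, 29694214 to 29718558, plus strand), differed most among the members. Its values were 6.48, 6.22, 6.26 and 6.25 in HetDam_HetFetus and 7.81, 7.69, 7.52 and 7.27 in KODam_HetFetus. The lowest fetus of a knockout dam exceeded the highest control (1.27 ± 0.179, 2.41-fold, adjusted p = 0.000149), and the call held with any single library left out and without the littermates. Other genes of late maturation were not called: Hemgn, a nuclear protein of erythroblasts (0.36, adjusted p = 0.127), Tspo2, a membrane protein of cholesterol handling in erythroblasts (0.26, adjusted p = 0.178), Trim58, a ubiquitin ligase of nuclear loss (0.27, adjusted p = 0.505), Trim10, a protein of terminal differentiation (-0.39, adjusted p = 0.218), Xpo7, a nuclear exporter (-0.31, adjusted p = 0.316), and Mkrn1, a ubiquitin ligase (-0.20, adjusted p = 0.0987). Mkrn1 did not overlap between the groups, and was called lower after trimmed-mean centring (-0.33, adjusted p = 0.0118) and quantile normalization (-0.25, adjusted p = 0.0375). The windows before the starts of Tspan33 (chr6:29693964-29694213, plus strand) and Bpgm (chr6:34476106-34476355, plus strand), the members that with Epor stayed called without the presumed littermates, held 1 KLF-type match each and 0 GATA hexamers.

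Tspan33: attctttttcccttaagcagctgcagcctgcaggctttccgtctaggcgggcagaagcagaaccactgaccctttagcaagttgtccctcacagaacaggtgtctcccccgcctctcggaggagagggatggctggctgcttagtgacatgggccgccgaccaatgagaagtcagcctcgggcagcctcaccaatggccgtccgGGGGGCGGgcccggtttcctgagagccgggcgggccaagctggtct

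Bpgm: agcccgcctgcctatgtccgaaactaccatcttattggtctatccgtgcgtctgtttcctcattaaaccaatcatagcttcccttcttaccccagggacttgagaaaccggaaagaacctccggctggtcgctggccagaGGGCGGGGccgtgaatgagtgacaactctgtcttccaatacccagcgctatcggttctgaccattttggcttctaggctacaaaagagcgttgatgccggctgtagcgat

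Other gene lists went in different directions in KODam_HetFetus, and their counts stand beside the 26.4% of all tested genes called higher and the 12.6% called lower. Of 16 late erythroblast and reticulocyte genes 8 were higher and 1 lower (median 0.30), or 2 and 2 after trimmed-mean centring. Of 12 early progenitor genes 2 were higher and 1 lower (median 0.17): Ybx3, an RNA-binding protein, rose by 0.80 ± 0.115 (adjusted p = 0.000153) and Myb, a factor of progenitors, fell by 0.66 (SE 0.182, adjusted p = 0.00872). Of 9 tested globin genes 3 were higher, the embryonic Hbb-y (1.53 ± 0.47, adjusted p = 0.0155) and Hba-x (1.31 ± 0.398, adjusted p = 0.0143) and Hbq1b (0.90 ± 0.171, adjusted p = 0.000828), whose near-identical copy Hbq1a makes its value uncertain. Cell cycle genes were higher in 24 of 30 and lower in 0, and their log2 sum was 9.51 to 9.91 in HetDam_HetFetus and 10.14 to 10.77 in KODam_HetFetus. Neutrophil and myeloid progenitor genes were lower in 12 of 15 and higher in 0, with log2 sums of 12.51 to 13.10 against 11.72 to 12.46. Of 15 macrophage genes 6 were lower and 1 higher, and of 19 hepatocyte genes 5 were lower and 1 higher. Hepatocyte sums overlapped, at 16.19 to 16.90 against 16.08 to 16.59. Without the presumed littermates of KODam_HetFetus 10 of 30 cell cycle genes were called higher, and all 30 had a higher mean. Also called higher were 1 of 16 late erythroblast, 2 of 12 early progenitor and 1 of 9 globin genes. Called lower were 6 of 15 neutrophil, 2 of 15 macrophage and 3 of 19 hepatocyte genes. The share of all tested genes called in that fit is not given. In log2 sums of the globins, HetDam_HetFetus replicate 4, which carried muscle transcripts, lay lowest of all libraries at 17.37, against 17.65 to 17.83 in the others. Without the 3 libraries that carried transcripts of other tissues the members called higher in KODam_HetFetus numbered 8, with Ank1 (0.71, adjusted p = 0.035) in and Rhd (0.44, adjusted p = 0.0788) out, and 0 were called lower. What part these cell types and the cell cycle had in the members' differences was not tested.

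**Figure D3:**
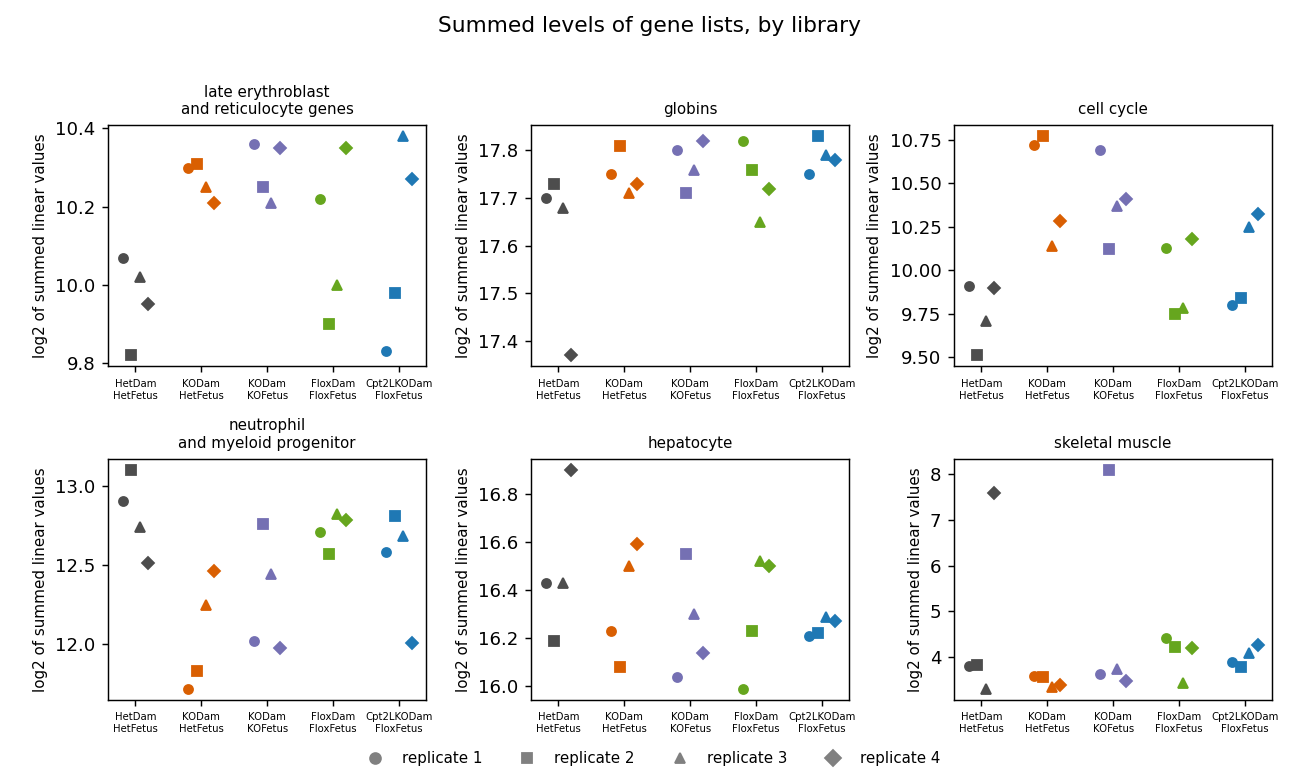
Log2 of the summed linear values (vertical axis, a separate scale per list) of 6 gene lists in each library, by group (horizontal axis), with symbols for replicates. The cell cycle sum lies higher and the neutrophil sum lower in KODam_HetFetus than in HetDam_HetFetus, and single libraries stand out for muscle (7.59 and 8.10) and for globins (17.37).

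The second comparison set knockout against heterozygous fetuses of knockout dams, and no member passed the test. Called genes were 0 of 36 in each direction, beside 0.0254% of all tested genes called higher and 0.796% called lower. At an unadjusted p under 0.05 there were 10 of 36 members (27.8%), against 10.9% of all tested genes. Means were higher in KODam_KOFetus for 28 of 36 (median 0.23, beside -0.015 for all tested genes), and the median was 0.07 without KODam_KOFetus replicate 1 and 0.14 without KODam_HetFetus replicate 4. All 6 transcription factors had a higher mean (median 0.54), and so had the receptor and all 6 blood group members, while 4 of 6 membrane members had a lower one. No presumed litter held fetuses of both genotypes, so litter and fetal genotype cannot be told apart. They also share KODam_HetFetus with the first comparison, in which it was the group set against the controls, so the 2 sets of differences are not independent and are only given side by side.

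For the members given next the knockout fetuses were split among themselves, but not for all members. Replicate 2 of KODam_KOFetus was the lowest of its group for 11 of 36 members (19.2% of all tested genes). It was the highest for 2 (36% of all tested genes). Klf1 stood at 7.04, 6.60, 5.71 and 6.31 in KODam_KOFetus, against 6.06, 5.61, 6.12 and 5.65 in KODam_HetFetus (0.55 ± 0.214, limma adjusted p = 0.377). Gata1 stood at 5.78, 5.42, 4.61 and 4.91 against 4.69, 4.76, 4.69 and 4.40 (0.55 ± 0.194, adjusted p = 0.34), and Lmo2 at 6.62, 6.46, 5.33 and 6.05 against 5.48, 5.09, 5.86 and 5.35 (0.67 ± 0.23, adjusted p = 0.31). In each case replicates 1 and 2, the presumed littermates, were the highest of the 4 knockout fetuses, and replicate 3 was the lowest. The smallest unadjusted p belonged to Uros, with 4.35 and 4.36 in the littermates and 3.11 and 3.39 in replicates 3 and 4, against 2.87 to 3.25 (0.83 ± 0.242, adjusted p = 0.185). Epb42 followed the same order within the knockouts, at 6.05, 5.59, 4.71 and 4.76, all above the 4.37 to 4.60 of KODam_HetFetus (0.82 ± 0.269, adjusted p = 0.277). Trim10, at 7.29, 6.98, 6.45 and 6.41, also lay above KODam_HetFetus without overlap (0.75 ± 0.246, adjusted p = 0.273). Without KODam_KOFetus replicate 3, 3 members were called higher: Klf1 (0.79, adjusted p = 0.0458), Uros (1.06, adjusted p = 0.0218) and Lmo2 (0.93, adjusted p = 0.0195). The knockout fetuses then left were the presumed littermates and replicate 4, and the share of all tested genes called in that fit is not given. Leaving out any other single library of these groups gave 0 calls.

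The 8 members higher in the first comparison were not called here. Epor stood at 5.50, 5.16, 5.35 and 5.56 in the knockout fetuses (0.01 ± 0.178, adjusted p = 0.987), Tspan33 at 7.46, 7.14, 7.43 and 7.60 (-0.16 ± 0.179, adjusted p = 0.751), and Bpgm at 7.14, 7.07, 6.75 and 7.05 (-0.10 ± 0.114, adjusted p = 0.767). Epb41 (-0.28 ± 0.21, adjusted p = 0.633) and Slc4a1 (-0.245 ± 0.243, adjusted p = 0.727) had lower means in the knockout fetuses. Rhd (0.19 ± 0.162, adjusted p = 0.672), Urod (0.11 ± 0.166, adjusted p = 0.832) and Fech (0.08 ± 0.177, adjusted p = 0.895) had higher ones. All 8 overlapped between the groups. Of the 27 other heme and iron genes 1 was higher and 1 lower. Hmox1, the oxygenase that breaks heme down, stood at 6.91, 6.76, 6.94 and 6.91 in KODam_HetFetus and 7.52, 7.34, 7.42 and 7.27 in KODam_KOFetus, and rose by 0.51 ± 0.104 (adjusted p = 0.0155). Clpx, the mitochondrial unfoldase that activates and turns over ALAS enzymes, fell from 5.32, 5.17, 5.78 and 6.11 to 4.51, 4.88, 4.96 and 4.75 (-0.82 ± 0.186, adjusted p = 0.0379). In the first comparison Clpx had been called in the other direction (0.48, adjusted p = 0.0458). Without the presumed littermates of KODam_HetFetus 0 of the 27 genes were called higher and 2 lower, so the call of Hmox1 was lost. Without the 3 libraries with transcripts of other tissues 0 were called in either direction, so neither call held.

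**Figure D4:**
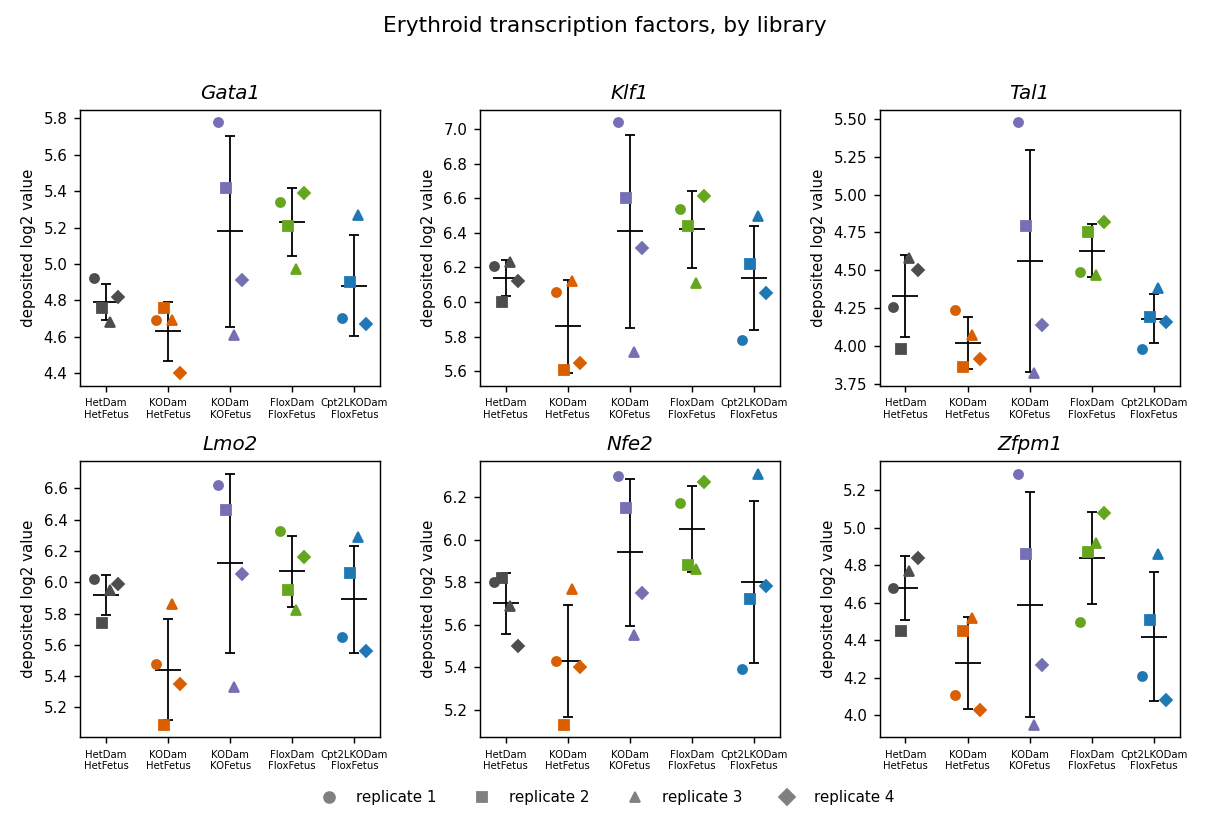
Deposited log2 value (vertical axis, a separate scale per gene) of the 6 erythroid transcription factors in each library, by group (horizontal axis), with symbols for replicates and lines for the mean ± SD (n = 4). In KODam_KOFetus replicates 1 and 2 lie at the top and replicate 3 at the bottom, as for Klf1 (7.04 and 6.60 against 5.71).

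The third comparison joined the steps, setting knockout fetuses of knockout dams against heterozygous fetuses of heterozygous dams. It shares its libraries with the comparisons above. Of the 36 members 11 were higher (30.6%, beside 17.4% of all tested genes called higher), 0 were lower (beside 7.31% called lower) and 34 had a higher mean in KODam_KOFetus. Replicates 1 and 2 of KODam_KOFetus are presumed littermates, and with litter as a random block 8 were called higher, without Slc4a1 (adjusted p = 0.0775), Bpgm (adjusted p = 0.0579) and Icam4 (adjusted p = 0.052). The median was 0.38, beside 0.137 for all tested genes, and was 0.22 without KODam_KOFetus replicate 1. After trimmed-mean centring it was 0.26, beside 0.021 for all tested genes. That centring left 8 members called higher, and over all tested genes the higher calls went from 2053 to 1154. Tspan33 (1.11 ± 0.179, limma adjusted p = 0.000592), Epor (0.93 ± 0.178, adjusted p = 0.00177), Urod (0.80 ± 0.166, adjusted p = 0.00285) and Fech (0.73 ± 0.177, adjusted p = 0.00682) led, with no overlap between the groups. In KODam_KOFetus Urod stood at 8.42, 8.17, 8.19 and 8.30, and Fech at 8.66, 8.11, 8.21 and 8.19. Rhd rose by 0.65 ± 0.162 (adjusted p = 0.00857), to 7.77, 7.32, 7.13 and 7.34, all above the controls.

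Members called here but not in the first comparison were Tspo2, Hemgn, Alad and Icam4. Tspo2 went from 6.44, 6.30, 6.14 and 6.14 to 6.99, 6.87, 6.69 and 6.90 (0.60 ± 0.149, adjusted p = 0.00802). Hemgn went from 6.87, 6.26, 6.62 and 6.72 to 7.85, 7.25, 7.11 and 7.09 (0.71 ± 0.182, adjusted p = 0.00969), and Alad from 5.62, 5.42, 5.27 and 5.16 to 6.39, 5.91, 5.72 and 5.87 (0.61 ± 0.163, adjusted p = 0.0127). In all 3 the groups were apart. Icam4 (0.61 ± 0.193, adjusted p = 0.0277), Bpgm (0.40 ± 0.114, adjusted p = 0.016) and Slc4a1 (0.68 ± 0.243, adjusted p = 0.0469) depended on single libraries. The call of Slc4a1 was lost without any of HetDam_HetFetus replicates 1, 2 and 3 or KODam_KOFetus replicates 1, 3 and 4 (adjusted p 0.0619 to 0.147), that of Icam4 without replicate 3 or 4 of the controls and without replicate 1 or 4 of the knockouts (adjusted p 0.059 to 0.0952), and that of Bpgm without HetDam_HetFetus replicate 4 (adjusted p = 0.0517). Without the 3 libraries with transcripts of other tissues, Alad (0.56, adjusted p = 0.0574), Bpgm (0.33, adjusted p = 0.0953) and Icam4 (0.47, adjusted p = 0.14) were not called. Uros, lower in the first comparison, did not differ beyond the spread (0.21 ± 0.242, adjusted p = 0.555), and Epb41 was not called (0.45 ± 0.21, adjusted p = 0.122). Of the transcription factors 5 of 6 had a higher mean and 0 were called (median 0.23).

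In the Cpt2 arm the question was the same with another defect of maternal fat oxidation. Of the members 0 were called, and of all tested genes 0% were called higher and 0% lower, with 0.147 as the smallest adjusted p of any gene. After quantile normalization of the tested genes 1 gene, no member, was called lower. At an unadjusted p under 0.05 there was 1 of 36 members (2.78%), against 11.1% of all tested genes. The median of the members was -0.09 (-0.20 to -0.02 with single libraries left out), beside -0.007 for all tested genes, and 27 of 36 had a lower mean in Cpt2LKODam_FloxFetus. That 1 member was Epb42, which stood at 5.39, 4.96, 5.22 and 5.90 in FloxDam_FloxFetus and at 4.50, 4.92, 5.36 and 4.44 in Cpt2LKODam_FloxFetus (-0.57 ± 0.269, limma adjusted p = 0.448). Epor stood at 5.08, 4.74, 4.55 and 4.96 against 4.74, 4.90, 5.48 and 5.62 (0.35 ± 0.178, adjusted p = 0.471), and replicates 3 and 4 of Cpt2LKODam_FloxFetus were the highest. Tspan33 had the same order, with 6.61 and 6.66 in replicates 1 and 2 and 7.28 and 7.49 in replicates 3 and 4, against 6.47 to 6.96 in FloxDam_FloxFetus (0.29 ± 0.179, adjusted p = 0.554). Ppox stood at 6.60, 6.40, 6.09 and 6.46 against 5.84, 6.05, 6.39 and 5.86 (-0.35 ± 0.183, adjusted p = 0.48). Cpox stood at 7.04, 6.85, 7.0 and 7.33 against 6.51, 6.38, 6.86 and 6.55 (-0.48 ± 0.255, adjusted p = 0.489). Both oxidases overlapped between the groups, through replicate 3 of Cpt2LKODam_FloxFetus. All 6 transcription factors had a lower mean, with Tal1 apart between the groups at 4.49, 4.75, 4.47 and 4.82 against 3.98, 4.19, 4.38 and 4.16 (-0.46 ± 0.244, adjusted p = 0.491).

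The maternal effects were tested against each other, Ppara minus Cpt2. None of the members was called (0, beside 0% of all tested genes called higher and 0% lower). The smallest limma adjusted p of any gene was 0.0992, so the lack of calls does not show that the members were alike. At an unadjusted p under 0.05 there were 9 of 36 members (25%), against 19.9% of all tested genes. Tspan33 differed most by p (0.98 ± 0.253, limma adjusted p = 0.121), then Urod (0.64 ± 0.235, adjusted p = 0.166), Bpgm (0.44 ± 0.162, adjusted p = 0.166) and Slc4a1 (0.90 ± 0.344, adjusted p = 0.175). Tspan33 was called without Cpt2LKODam_FloxFetus replicate 4 (adjusted p = 0.0323). In the Cpt2 arm Urod stood at 8.10, 7.81, 7.60 and 8.02 in FloxDam_FloxFetus and 7.48, 7.79, 8.30 and 8.13 in Cpt2LKODam_FloxFetus. Bpgm stood at 6.75, 6.94, 6.60 and 7.03 against 6.75, 6.82, 6.85 and 7.13, and Slc4a1 at 9.09, 8.53, 9.08 and 9.62 against 8.79, 8.60, 9.57 and 9.46. All 3 overlapped between the Cpt2 groups, and none of them did between HetDam_HetFetus and KODam_HetFetus. The 8 members called higher for maternal Ppara are therefore not shown to differ between the maternal knockouts. Side by side, Epor differed by 0.92 ± 0.178 and 0.35 ± 0.178, Slc4a1 by 0.93 ± 0.243 and 0.03 ± 0.243, Fech by 0.65 ± 0.177 and 0.04 ± 0.177, and Uros by -0.63 ± 0.242 and -0.37 ± 0.242 for Ppara and Cpt2.

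**Figure D5:**
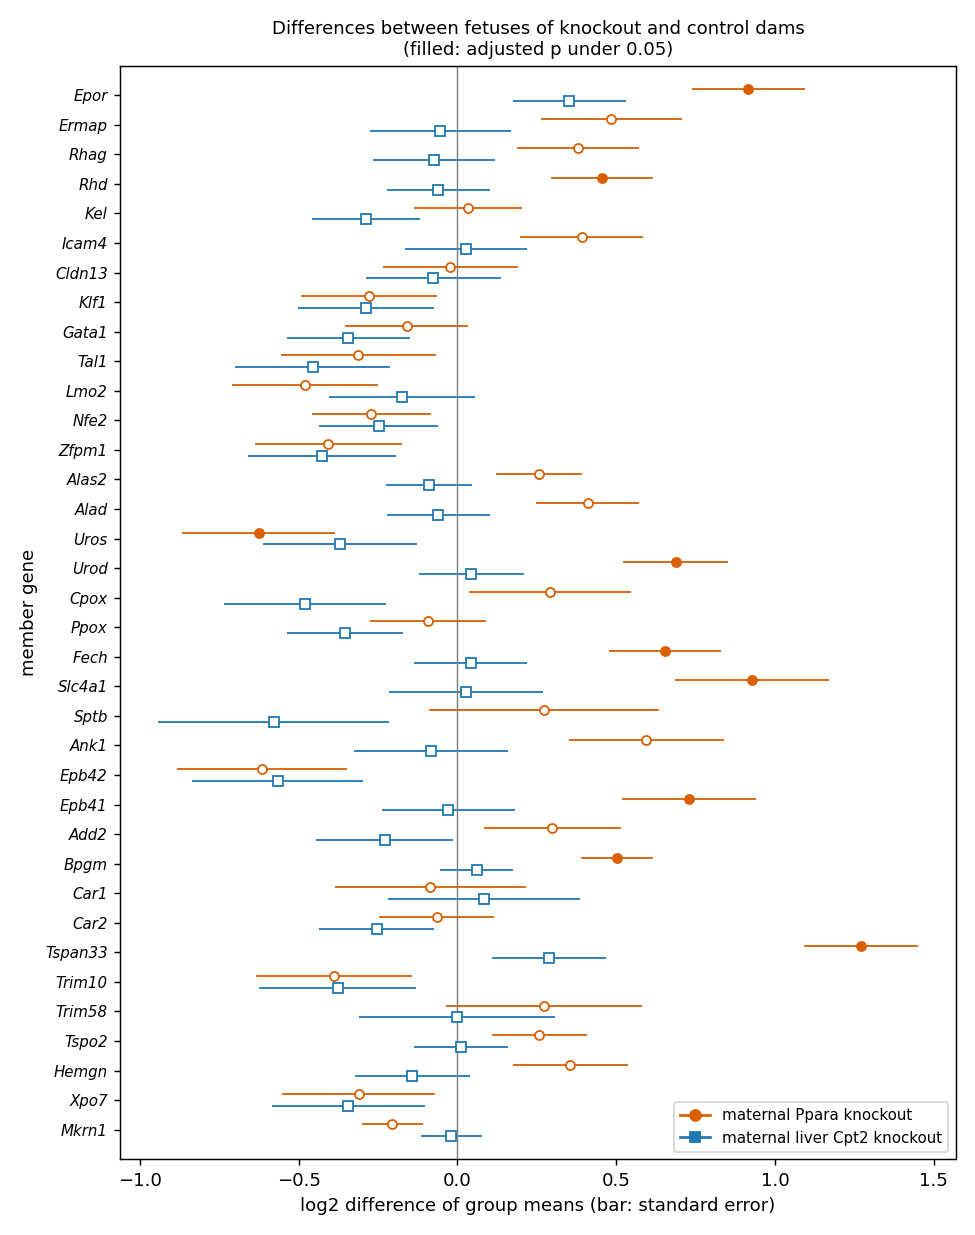
Log2 difference between fetuses of knockout and control dams (horizontal axis, bars show the standard error) for each member (vertical axis), with circles for maternal Ppara and squares for maternal liver Cpt2; filled symbols have a limma adjusted p under 0.05. The 9 filled symbols belong to Ppara, and the 6 transcription factors lie left of 0 in both.

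The control groups of the arms differ in genotype, and the members were compared between them as well. None of the 36 was called, beside 0.0593% of all tested genes called higher and 0.0763% called lower, but 34 had a lower mean in HetDam_HetFetus than in FloxDam_FloxFetus. The median was -0.29, beside -0.15 for all tested genes, and -0.15 beside -0.002 after trimmed-mean centring. At an unadjusted p under 0.05 there were 10 of 36 members (27.8%), against 16.5% of all tested genes. Alad (-0.51 ± 0.163, limma adjusted p = 0.17), Cldn13 (-0.58 ± 0.212, adjusted p = 0.207), Uros (-0.65 ± 0.242, adjusted p = 0.212) and Rhd (-0.41 ± 0.162, adjusted p = 0.233) had the smallest p. In FloxDam_FloxFetus Alad stood at 6.05, 5.91, 5.56 and 5.97, Rhd at 7.39, 7.23, 6.74 and 7.25, and Cldn13 at 6.57, 6.66, 6.19 and 6.66, against 6.07, 6.05, 5.90 and 5.77 for Cldn13 in HetDam_HetFetus. Replicate 3 of FloxDam_FloxFetus was the lowest of its group in all 3. Uros stood at 4.57, 4.31, 3.89 and 4.20 in FloxDam_FloxFetus, above all 4 of HetDam_HetFetus. Every contrast with HetDam_HetFetus uses this lower control group. In the order of group means Epor ran from 4.46 ± 0.115 (SD, n = 4) in HetDam_HetFetus through 4.83 ± 0.235 in FloxDam_FloxFetus and 5.19 ± 0.431 in Cpt2LKODam_FloxFetus to 5.38 ± 0.249 in KODam_HetFetus and 5.39 ± 0.174 in KODam_KOFetus. Each group overlapped with the next in this order. Tspan33 kept that sequence in its lower groups, with 6.3 ± 0.118, 6.72 ± 0.233 and 7.01 ± 0.443, followed by 7.41 ± 0.195 in KODam_KOFetus and 7.57 ± 0.234 in KODam_HetFetus. Uros ran otherwise, from 2.97 ± 0.189 in KODam_HetFetus through 3.60 ± 0.174 in HetDam_HetFetus, 3.80 ± 0.648 in KODam_KOFetus and 3.87 ± 0.341 in Cpt2LKODam_FloxFetus to 4.24 ± 0.285 in FloxDam_FloxFetus, and its 2 lowest groups did not overlap.

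Within groups the members tended to be high or low in the same fetus. KODam_KOFetus replicate 1 was the highest of its group for 30 of 36 members, beside 23.3% of all tested genes, and Cpt2LKODam_FloxFetus replicate 3 for 30 of 36, beside 23.9%. FloxDam_FloxFetus replicate 4 was the highest for 24 of 36 (28.6% of all genes). At the low end were Cpt2LKODam_FloxFetus replicate 1, lowest for 25 of 36 members (43.1% of all genes), HetDam_HetFetus replicate 2 for 22 (46.1%), FloxDam_FloxFetus replicate 3 for 19 (19.4%) and KODam_KOFetus replicate 3 for 19 (30.5%). In KODam_HetFetus the highest values were spread over replicates 1, 2 and 3, with 12, 12 and 11 members (11.9%, 18.8% and 22.8% of all genes). Replicate 4 was the highest for 1 member (46.6% of all genes). Replicates 3 and 4 were each the lowest for 13 members (26.7% and 7.02% of all genes). The log2 sum of the 6 transcription factors had an SD of 0.524 in KODam_KOFetus, from 7.60 to 8.81, against 0.078 in HetDam_HetFetus, from 7.90 to 8.07. These members share libraries, so the counts describe the fetuses and are no test.

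Promoter windows were at hand for 27 of the 37 members (33 windows of 250 bases before a RefSeq start, GRCm38.p6) and not for Fech, Slc4a1, Ank1, Lmo2, Nfe2, Ahsp, Car1, Car2, Cldn13 and Xpo7. A GATA hexamer was in 51.5% of the member windows, against 26.5% of all 32841 windows of that length, and a KLF-type match in 57.6%, against 45.9%. No member window had a GATA hexamer overlapping a KLF-type match. By gene, a GATA hexamer was in a window of 5 of the 10 members called higher in either comparison with HetDam_HetFetus (Epor, Epb41, Rhd, Hemgn and Icam4) and of 11 of 16 members not called at the settings behind the counts above, and a KLF-type match in 8 of 10 and 7 of 16. Those 11 were Klf1, Tal1, Alas2, Cpox, Epb42, Add2, Rhag, Ermap, Kel, Trim10 and Trim58. Uros, called lower, had matches to each motif and is in neither set. The 4 KLF-type matches of Hemgn overlap in a single run of G. The shares of all windows are per window and some members had several, so they are no background for these counts by gene. A match is a string of letters and shows no binding.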

How the data were processed

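Fetal liver RNA was extracted with Trizol and columns, and stranded mRNA libraries were sequenced as single reads, per the labels' protocols. The submitters' processing notes name bcl2fastq 2.17.1.14, Partek 7.0 and GRCm38.p6. Which aligner and counting rule produced the values is not given in the sources used here, nor whether strand was used. The authors deposited log2 values with the same quantiles in every library (median -0.93 and 90th percentile 4.08 over the values present), so a difference in total RNA is not kept, and what was counted before the log step is not stated. Counts could not be recovered, so read depth and the precision it gives are unknown.

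Genes entered the test with a linear value of 1 or more in 4 or more libraries. All 20 libraries went into a limma 3.58.1 fit (R 4.3.3) with a mean for each group and empirical Bayes moderation with a trend (residual degrees of freedom 15, prior 4.09). Benjamini-Hochberg adjustment of the two-sided p-values ran over all genes of a comparison. The fit was checked on simulated data. Alternatives were trimmed-mean centring, quantile normalization of the tested genes, other filters and pseudocounts, other fits, litter and replicate blocks, and leaving out libraries. Leaving out the 3 libraries with transcripts of other tissues was added after seeing the data. Values were shown by library for called members, or for the 4 with the smallest p where fewer than 4 were called, and for up to 4 called genes of other lists. Those of Alas2, Klf1 and Gata1, and of Epor, Tspan33 and Bpgm outside their called comparisons, were chosen after the values were seen. So were Steap3 and the windows printed. Also outside that rule of display were the values of Lmo2 and Epb42 in the first comparison and of Tal1 in the Cpt2 arm. A gene of the heme list is not reported here by name. Members and lists were chosen with earlier results of these data known. Same-numbered libraries correlated above 0.1 in every pair only between the control groups (0.127 to 0.323), with no label that says what the numbers share, and the block changed no call there. Promoter windows and positions are those of RefSeq on GRCm38.p6, and motifs were searched on both strands.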

Additional observations from a re-analysis of the deposited data

Results flagged for a closer look

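Dixon's test was run on 95 sets of 4 libraries (19 members in 5 groups), where chance alone marks about 1 in 20. It marked 4 values, each a library far from the other 3 of its group. In HetDam_HetFetus replicate 1 Tspan33 stood at 6.48 (nearest 6.26) and Urod at 7.86 (nearest 7.37), both on the side of the knockout dams. In HetDam_HetFetus replicate 2 Epb42 stood at 4.62 (nearest 5.19). In KODam_HetFetus replicate 3 Uros stood at 3.25 (nearest 2.90).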

How the results depend on the processing

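Over the 36 measured members and all alternatives, 50 calls were lost and 28 gained, each counted once per comparison and setting. For the 36 differences followed one by one (the called ones and, where fewer than 4 were called, those with the smallest p), 0 of 769 recomputed values changed sign. Of 393 recomputed counts and medians 374 stayed within 1.5 times (counts) or 1 SD (medians). That SD, 0.244, was the spread of the member median between libraries of a group, near the size of medians such as 0.27 for maternal Ppara. Counts that were 0 and stayed 0 were included, so the tally says little about how stable the results are. The values beyond these limits were mostly the lower calls for maternal Ppara (1, Uros). They numbered 4 after trimmed-mean centring, 2 after quantile normalization, 4 with only the groups compared, and 0 with no filter on low values, a pseudocount of 4, no mean-variance trend, litter as a random block, no littermates (replicates 1 and 2 of KODam_HetFetus) or no libraries with transcripts of other tissues. Without the littermates the higher calls numbered 3 and the median was 0.02. Leaving out single libraries gave 0 to 1 lower calls for maternal Ppara, 0 to 3 higher calls for fetal Ppara and 0 to 1 for the difference of the maternal effects; the causes were not tested. With the replicate block, members called higher numbered 9 for maternal Ppara (8 without it) and 13 for both knockouts (11 without it), and 0 elsewhere. With litter as a random block (correlation 0.566) they numbered 7 and 8. Same-numbered libraries correlated at -0.378 to 0.323, and at -0.378 to 0.269 outside the control groups. These few correlations cannot decide whether the numbers pair the samples. With 4 fetuses a group, presumed littermates among them and no depth, small differences were not detectable.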
